A study of Homo sapiens with 11 samples.

Results

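The clustered protocadherins are 59 of the 58699 genes in the authors' deposited table of total RNA from HCT116, an established line of human colorectal cancer cells. They were chosen by gene symbol alone, as every gene named PCDHA, PCDHB or PCDHG followed by a number or by A, B or C. No measured value entered this rule, although earlier results of these data were known when the members were chosen. The alpha cluster has 16 of them, the beta cluster 19 and the gamma cluster 24, and 6 of the 59 are pseudogenes (PCDHA14, PCDHB17P, PCDHB18P, PCDHB19P, PCDHGB8P and PCDHGB9P). All lie on the plus strand of chromosome 5 between 140786136 and 141512981 (GRCh38, GENCODE 29), a span of 727 kb that runs from alpha through beta to gamma. The cells were transfected with a control siRNA to luciferase (siLuc) or with one to Staufen1 (siStau1), a protein that binds double-stranded RNA. They were then given either the solvent DMSO or, at 500 nM for 5 days, decitabine (DAC). Decitabine is a nucleoside that is built into DNA and lowers its methylation. The 4 groups (siLuc with DMSO, siLuc with DAC, siStau1 with DMSO, siStau1 with DAC) had 2 total RNA libraries each, all from 1 cell line with transient transfection. Where 4 values follow each other below, they stand in this order of the groups. The labels do not say whether the libraries of a group came from separate cultures.

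Clustered protocadherins are adhesion proteins of the cadherin superfamily that bind copies of themselves on a neighbouring cell and are best known for giving single neurons a surface identity. An alpha or gamma gene supplies its own large first exon with its own promoter, which is spliced to constant exons shared by the whole cluster, whereas a beta gene is a single exon with no constant part. CTCF and cohesin link chosen promoters to distant enhancers, promoter methylation keeps the others silent, and the clusters are known as a region of long-range promoter methylation in epithelial tumours.

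The short element that most of these promoters share holds the letters CGCT and lies just before the start. It is shown here because it contains a CpG, the dinucleotide whose methylation decitabine lowers, and because its flanks differ between the clusters. RefSeq (GRCh38.p14) gave a promoter for 47 of the 59 members, of which only the 250 bases before the start were used. A CGCT on the forward strand within the 100 bases before the start was found in 44 of 47 (93.6%), against 28.1% of all 35116 promoters. The letters CGCT alone do not identify the element, and any CGCT there was counted. By cluster these were 12 of 13 alpha, 13 of 14 beta and 19 of 20 gamma promoters, and the median position was 59 bases before the start. The lines below give 30 bases around the most upstream such CGCT for 10 members, the 3 of highest FPKM in each cluster and PCDHGC3, 5′ to 3′ on the plus strand, with the CGCT in capitals.
PCDHA12: agtcacatgatgtCGCTctacactcagaag
PCDHAC1: tagaaggtgtggtCGCTcacgttcaccgtc
PCDHAC2: agcagtccgggttCGCTgtccgccacttcg
PCDHB2: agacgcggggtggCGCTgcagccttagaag
PCDHB9: agccacaaggtggCGCTgcagactgaagag
PCDHB15: caacgcatggtggCGCTgcaggctaaggct
PCDHGA10: ggactctgagcgcCGCTgttcacctactag
PCDHGA11: gggctctaggcgcCGCTgctcaccaatcag
PCDHGC3: ggactctgtgtgcCGCTgtcggccaatgaa
PCDHGC4: tgagcccgggagcCGCTgtctgccaatcgg

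The flanking letters separated the clusters. Searched on both strands over the 250 bases, GATGTCGCT was in 9 of 13 alpha promoters and in 0 of the 14 beta and 0 of the 20 gamma promoters, against 0.0854% of all promoters. GGTGGCGCT was in 12 of 14 beta promoters and in 0 alpha and 0 gamma promoters, against 0.410% of all. CGCTGTT was in 13 of 20 gamma promoters, 1 of 14 beta and 0 of 13 alpha promoters, against 1.79% of all. These 3 strings, which overlap in the CGCT itself, were picked after the member promoters had been read, so the counts describe the promoters and are no test. Among the 43 stretches that could be lined up on the CGCT, 41 had a G at the second base before it. The exceptions were PCDHAC2 and PCDHGB7, whose CGCT may not mark the shared element. In PCDHGB7 the surrounding letters match those of the more downstream CGCT of PCDHGB6.

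Over the whole 250 bases, this element included, the promoters differed in CpG content. Members had a median of 6 CpG dinucleotides in 250 bases (range 2 to 18), below the median of 11 over all promoters. The medians of the clusters were close to each other, at 5 for alpha, 6 for beta and 5.5 for gamma. The highest counts were 18 in PCDHAC1, 15 in PCDHGC3 and 14 in PCDHGB6, and PCDHGC4 and PCDHAC2 had 13 each. The whole 250 bases are printed for the most highly expressed alpha and gamma members and for PCDHB2, the beta gene that read 0 in both DMSO groups, with each CpG in capitals. They are chr5:140966226-140966475, chr5:141094365-141094614 and chr5:141412737-141412986, all on the plus strand, with 13, 10 and 3 CpG.
PCDHAC2: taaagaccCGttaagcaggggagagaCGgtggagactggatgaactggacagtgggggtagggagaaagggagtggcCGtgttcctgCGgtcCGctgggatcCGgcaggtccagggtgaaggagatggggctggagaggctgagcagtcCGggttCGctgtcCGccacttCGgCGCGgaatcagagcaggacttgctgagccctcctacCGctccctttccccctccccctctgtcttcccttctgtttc
PCDHB2: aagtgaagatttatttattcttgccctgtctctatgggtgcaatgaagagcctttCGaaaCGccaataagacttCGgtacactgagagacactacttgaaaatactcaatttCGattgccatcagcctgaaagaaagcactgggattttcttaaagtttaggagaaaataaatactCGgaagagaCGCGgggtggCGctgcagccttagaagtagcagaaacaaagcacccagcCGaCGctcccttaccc
PCDHGA10: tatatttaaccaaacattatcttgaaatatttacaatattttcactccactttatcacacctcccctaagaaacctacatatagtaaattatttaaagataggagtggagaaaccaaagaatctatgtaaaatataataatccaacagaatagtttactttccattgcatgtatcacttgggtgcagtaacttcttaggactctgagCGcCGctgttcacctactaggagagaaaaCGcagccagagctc

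The values are FPKM, fragment counts scaled to transcript length and library size, and the table gives 1 value per group and none per library. No spread between libraries can therefore be given, and every ratio below is between 2 such values. The only tests are those of the authors' deposited table, whose q-values rest on the variation that Cuffdiff modelled from these libraries. Steps in the FPKM of single-transcript genes correspond to about 20400000, 17700000, 24300000 and 19700000 fragments per library, if both libraries of a group were equally deep. STAU1, the targeted gene, read 35.5, 33.7, 29.98 and 27.1 FPKM, so its mRNA was little lower in the siStau1 groups. Epithelial markers were high in all groups (6 of 6 tested, summed FPKM 2630, 8249, 2170 and 5968). With decitabine, the authors' deposited table called EPCAM lower in siLuc cells, KRT19 higher in siLuc and siStau1 cells, and KRT18 higher in siStau1 cells. Of 12 markers of other cells, the 5 of neurons summed to 77.8, 208, 64.4 and 145 FPKM, almost all of it TUBB3. The 4 of fibroblasts summed to 1.74, 10.3, 1.20 and 6.38, and the 3 of blood to 0.0540, 0.752, 0.0182 and 1.25. These sums were higher in both decitabine groups, as the protocadherins and the epithelial sum were, although the median log2 ratio of the neuron markers in siStau1 cells was -0.70. Of the 12 markers, TUBB3 in siLuc cells and COL1A1 and PTPRC in siStau1 cells were called higher with decitabine in the authors' deposited table. Further, NEFL, PTPRC and COL1A2 were at 0 in both DMSO groups. Their part in the results was not tested. In bulk RNA, fewer cells of a type and less RNA per cell cannot be told apart.

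Clustered protocadherins were at very low levels in HCT116, and more of them were detected with decitabine. With DMSO, 25 of the 59 members were at 0 (under 0.001 FPKM) in siLuc cells and 21 in siStau1 cells, and with decitabine 6 and 7. Members at 0.1 FPKM or more numbered 7 and 9 with DMSO and 23 and 17 with decitabine. Over all genes the shares at this level were 33.5% and 33.4% with DMSO and 39.4% and 38.5% with decitabine. Summed over the family, FPKM came to 4.26, 11.7, 4.62 and 10.1, so both sums with decitabine lay above both with DMSO. The same held for FPKM summed over all genes, at 1129076, 1793611, 967545 and 1491061. No group had more than 2 members at 1 FPKM or above (PCDHAC2 and PCDHGA10), and 57 members stayed below 1 in all 4 groups. Over all genes, 22.7% to 24.4% reached 1 FPKM in each group. PCDHA14, PCDHB1 and PCDHB17P were at 0 in all 4 groups, and 32 members never reached 0.1.

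**Figure D1:**
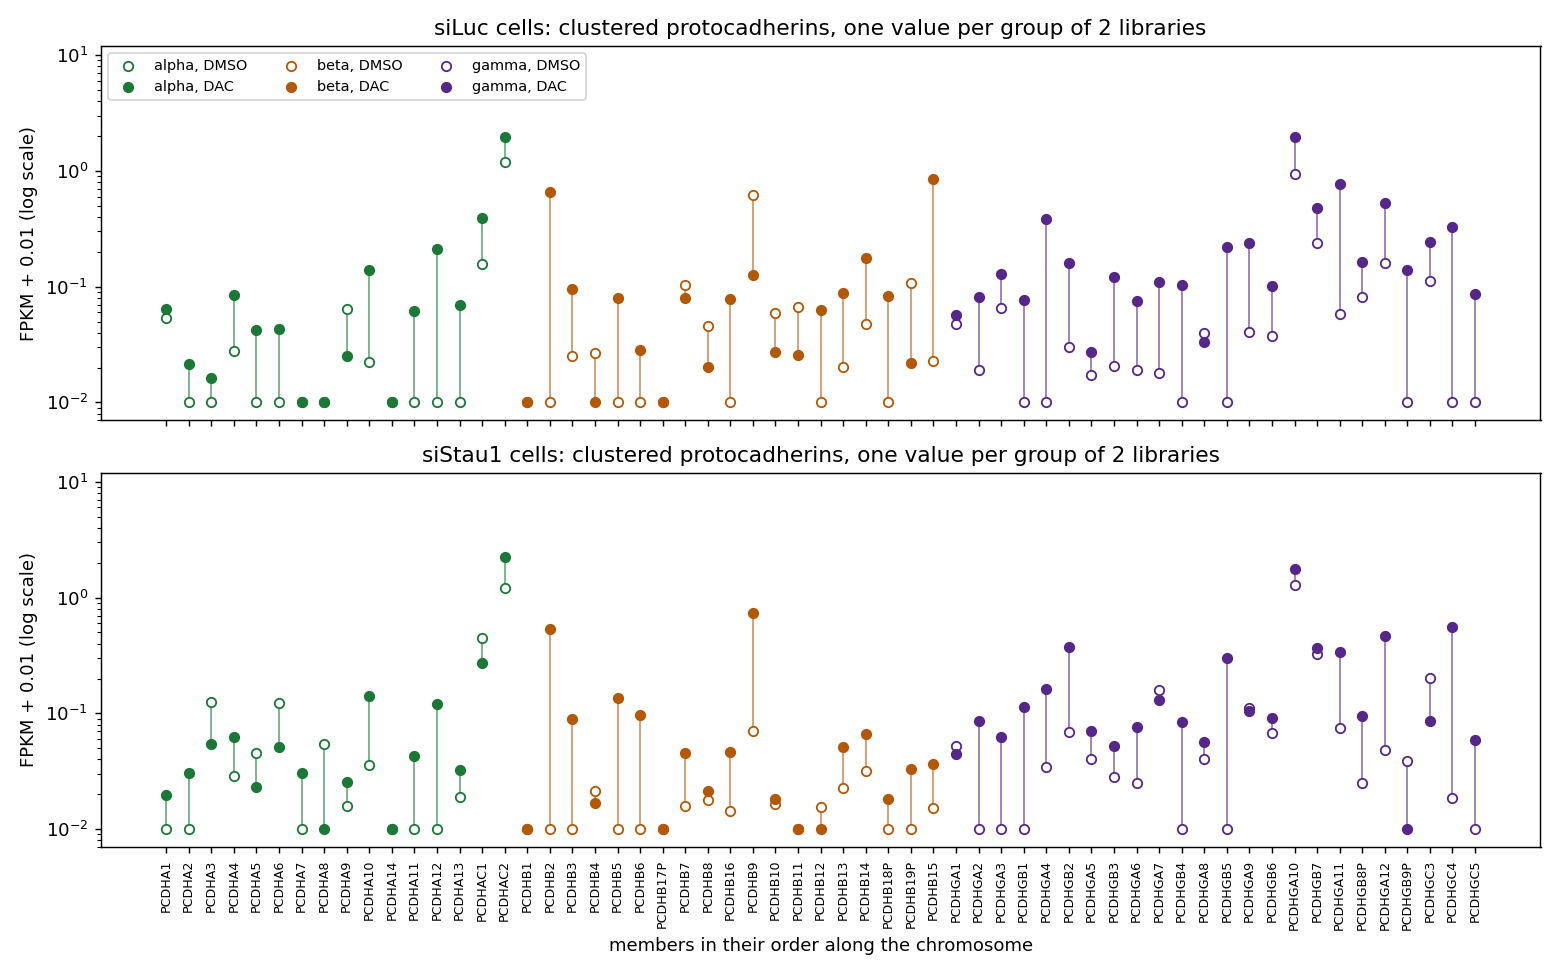
FPKM + 0.01 (log scale) of the 59 members in their order along chromosome 5, siLuc cells above and siStau1 cells below, open circles for DMSO and filled circles for decitabine (DAC), each 1 value from 2 libraries with no error given. PCDHAC2 and PCDHGA10 stand highest in both panels with decitabine, and most filled circles lie above the open ones, with PCDHB9 in siLuc cells and PCDHA8 in siStau1 cells among the exceptions.

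None of these differences was called for a single member. Cuffdiff tested few of them, since most had too few fragments. In siLuc cells the authors' deposited table called 13.5% of all tested genes between decitabine and DMSO, and 0 of the 5 members tested. For siStau1 cells it called 7.46% of tested genes and 0 of 4 members. Staufen1 knockdown gave calls for 0.799% of tested genes with DMSO (0 of 2 members) and 0.904% with decitabine (0 of 7 members). At an unadjusted Cuffdiff p under 0.05, the count of members in the authors' deposited table was again 0 in each of these 4 comparisons, against 28.9%, 19.0%, 4.3% and 6.95% of all tested genes. With 2 to 7 members tested of 59, these counts say nothing of the rest.

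Read as directions, the members were more often higher than lower with decitabine. In siLuc cells 45 were higher and 9 lower, with 5 at 0 in both, so that 83.3% of those above 0 were higher, against 62.4% of all genes and 68.5% of genes with a mean FPKM under 2. In siStau1 cells 43 were higher and 12 lower, which is 78.2% against 59.9% of all genes and 64.8% of the low genes. The median log2 ratio, with 0.1 added to each FPKM, was 0.65 and 0.30 in siLuc and siStau1 cells over all members. Over the members above 0 it was 0.69 and 0.33, beside 0.50 and 0.36 over the low genes above 0. Members overlap in sequence and share a locus, so they are not separate observations, and the direction of a value of 0.01 FPKM rests on a few fragments.

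Many members were higher with decitabine in both siRNA arms. Of the 53 members above 0 in both arms, 35 were higher in both, 10 in siLuc cells alone, 7 in siStau1 cells alone and 1 lower in both. Both decitabine values exceeded both DMSO values for 32 of the 56 members above 0 in any group (57.1%), against 35.3% of all genes and 33.2% of low genes. The reverse held for 2 members, PCDHB4 and PCDHA8. PCDHA8 was at 0 in siLuc DMSO and in both decitabine groups, so it was counted only through residues under 0.001 FPKM. The share of the reverse over all genes was not counted. At 0 in both DMSO groups and above 0 in both decitabine groups were 11 members, 3 of alpha, 4 of beta and 4 of gamma, or 19.6% of the 56, against 7.36% of all genes above 0 in any group and 11.3% of low ones. A log2 ratio of at least 1 was reached by 12 members in siLuc cells and 11 in siStau1 cells, against 28.0% and 22.0% of all genes above 0, so these counts are no larger a share of the members than of all genes. It was reached in both arms by 8 members: PCDHA12, PCDHB2, PCDHGA4, PCDHGB2, PCDHGB5, PCDHGA11, PCDHGA12 and PCDHGC4, of which 6 are gamma genes. For both arms together the share over all genes was not counted. Across the 59 members, Spearman's rho of FPKM between the 2 decitabine groups was 0.768 and between the 2 DMSO groups 0.499. These are descriptions, since the members of a cluster share reads and many DMSO values are tied at 0.

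The clusters differed in level and in how their signal was spread over genes. Gamma had the highest sum with decitabine, at 6.37 FPKM in siLuc and 5.33 in siStau1 cells, against 1.78 and 2.47 with DMSO. Alpha summed to 3.02 and 2.9999 with decitabine and to 1.45 and 2.01 with DMSO, and a single gene, PCDHAC2, held 60.0% to 81.0% of it. Beta was the lowest in each group, at 2.33 and 1.80 with decitabine and at 1.04 and 0.141 with DMSO. Of gamma, 23 members were higher and 1 lower with decitabine in siLuc cells, and 19 and 5 in siStau1 cells. Alpha had 12 higher and 1 lower in siLuc cells, and 10 and 5 in siStau1 cells. Beta had 10 higher and 7 lower in siLuc cells, and 14 and 2 in siStau1 cells.

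**Figure D2:**
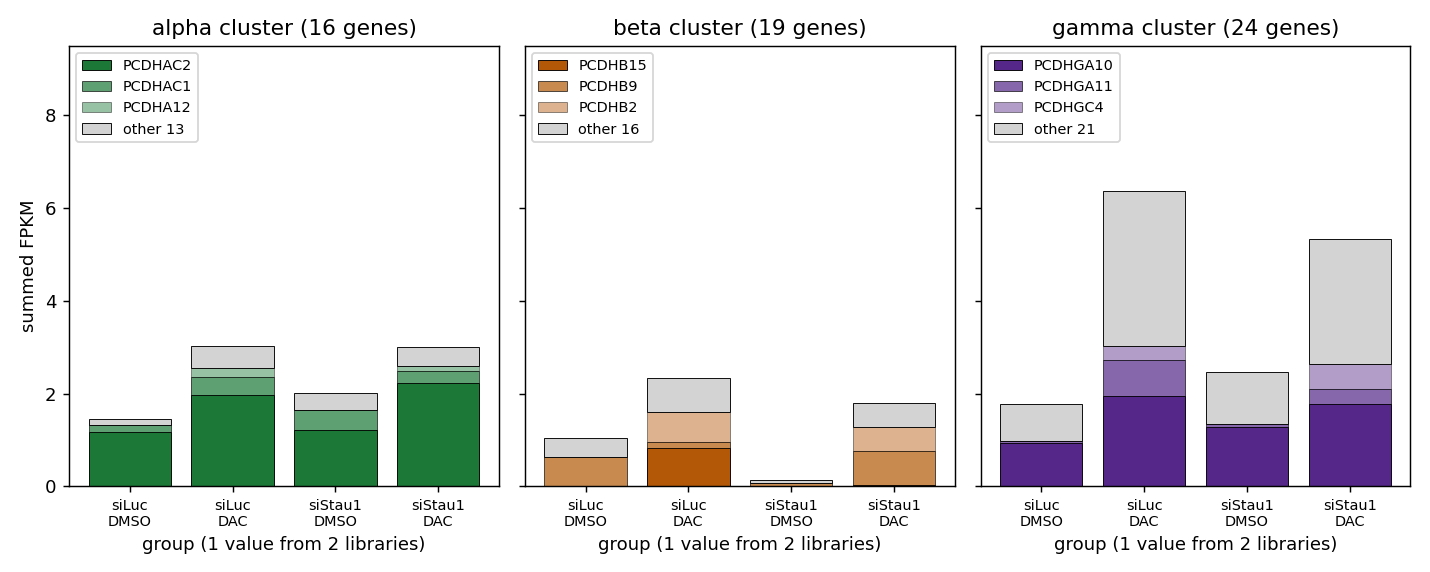
Summed FPKM of the alpha, beta and gamma clusters in the 4 groups (bars start at 0, each value from 2 libraries, no error given), with the 3 members of highest FPKM in colour and the rest in grey. PCDHAC2 makes up most of every alpha bar, PCDHGA10 about 1.77 to 1.96 FPKM of the gamma bars with decitabine, and the beta bars have a different leading gene in siLuc DAC (PCDHB15) than in siStau1 DAC (PCDHB9).

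The order of the clusters by median log2 ratio depended on whether members at 0 were counted and on the genes they were set against. As deposited, the medians for decitabine over all members were 0.41 for alpha, 0.24 for beta and 0.85 for gamma in siLuc cells, and 0.15, 0.30 and 0.56 in siStau1 cells. Over the members above 0 they were 0.58, 0.61 and 0.85 in siLuc cells, and 0.17, 0.34 and 0.56 in siStau1 cells. Among the 10953 protein-coding genes that reached 1 FPKM in both siLuc groups, GC-rich transcripts were higher with decitabine in siLuc cells, from a median log2 of -0.95 in the most AT-rich of 20 bins to 1.20 in the most GC-rich. Gamma transcripts have a median GC of 55.1%, alpha 48.0% and beta 48.4%. Relative to the bins of those 10953 genes, the members above 0 had medians of 0.67, 0.67 and 0.43 for alpha, beta and gamma in siLuc cells. The 10953 genes are far more highly expressed than the members. The 6606 low protein-coding genes above 0 (mean FPKM under 2) were therefore binned in the same way, and their medians ran from 0.09 to 1.26. Relative to low genes of like GC, the members above 0 had a median of 0.11 in siLuc cells, with 34 higher and 20 lower, and of -0.01 in siStau1 cells, with 26 higher and 29 lower. By cluster these medians were 0.11, 0.12 and 0.13 for alpha, beta and gamma in siLuc cells, and -0.23, 0.0076 and 0.046 in siStau1 cells. On this measure the higher median of the gamma cluster was almost lost in siLuc cells. In siStau1 cells gamma was close to beta, but alpha stayed below both. The family median differed little from that of low genes of like GC. The 0.1 added to each FPKM shrinks ratios most at the lowest levels. The low genes were not matched to the members in level, so a small difference here cannot show that they responded alike. By share higher, members stood above low genes, at 83.3% against 68.5% in siLuc cells and 78.2% against 64.8% in siStau1 cells. These shares were not matched for GC, and their low genes were not limited to protein-coding ones. Against low genes of like GC, more members were higher only in siLuc cells (34 and 20), not in siStau1 cells (26 and 29). The source of the GC trend was not tested.

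In the alpha cluster the C-type genes led. PCDHAC2, the last alpha gene and one of the C-type isoforms that many neurons express together, read 1.17, 1.97, 1.21 and 2.22 FPKM. Both decitabine values lay above both DMSO values, but neither difference passed, with q-values of 0.515 in siLuc and 0.605 in siStau1 cells in the authors' deposited table. PCDHAC1, its neighbour and the other alpha C-type gene, read 0.148, 0.380, 0.436 and 0.261 FPKM, so it was higher with decitabine in siLuc cells and lower in siStau1 cells. The other alpha genes, whose first exons are chosen at random in single neurons, summed to 0.127, 0.671, 0.368 and 0.516 FPKM over PCDHA1 to PCDHA13. The highest of these, PCDHA12, was at 0 in both DMSO groups and read 0.202 and 0.111 with decitabine. PCDHA10 read 0.0126 and 0.0261 with DMSO and 0.130 and 0.132 with decitabine. PCDHA3, PCDHA6 and PCDHA8, by contrast, had their highest value in siStau1 DMSO, at 0.115, 0.113 and 0.0440. The pseudogene PCDHA14 was at 0 throughout. The alpha genes share a median of 54.5% of the exonic bases of their longest transcript with another member, so the reads of the constant exons had to be divided between them, and a low level of a single alpha gene is uncertain.

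Of the beta genes, PCDHB15, PCDHB2 and PCDHB9 had the largest ratios between groups. They are single-exon genes in their longest transcript and share no annotated exonic bases, though a median of 14.1% of their 50-base words occurs in another member, so their FPKM is less dependent on how reads were divided. PCDHB2 had a value of 0 with DMSO in siLuc and in siStau1 cells, and read 0.645 and 0.530 FPKM with decitabine in siLuc and siStau1 cells. These correspond to about 91 and 83 fragments, and a count of 0 in siLuc DMSO allows up to 3 fragments or 0.0186 FPKM, for counting error only. Its q-value between decitabine and DMSO was 0.429 in siLuc cells in the authors' deposited table (p = 0.107), and it was not tested in siStau1 cells. PCDHB2 was the only member called in any of the 6 comparisons deposited, in 1 of the 2 that change siRNA and drug together. That comparison, siLuc DAC against siStau1 DMSO, called 16.7% of tested genes and 1 of 5 members tested. PCDHB2 has the same pair of values there, 0.645 and 0 FPKM, but p = 5e-05 and q = 0.00162 in the authors' deposited table, and the cause of the unequal p-values was not tested. The other comparison of that kind, siStau1 DAC against siLuc DMSO, called 4.98% of tested genes and 0 of 4 members.

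PCDHB9 and PCDHB15 had unlike ratios in the 2 siRNA arms. PCDHB9 read 0.613, 0.116, 0.0601 and 0.728 FPKM. It was thus high in 1 DMSO group and 1 decitabine group, and its log2 ratio for decitabine was -1.72 in siLuc and 2.37 in siStau1 cells. PCDHB15 read 0.0128, 0.836, 0.00534 and 0.0262 FPKM, so it was higher with decitabine in both arms but high only in siLuc DAC. The estimated fragments, summed over the 2 libraries of a group, were 106, 17, 12 and 122 for PCDHB9 and 2, 114, 1 and 4 for PCDHB15. They are rough, since both genes have more than 1 annotated transcript. Neither was called: the authors' deposited table gives q = 0.721 for PCDHB15 with decitabine in siLuc cells and q = 0.700 for PCDHB9 in siStau1 cells. Between the decitabine groups the q-values of that deposited table were 0.646 for PCDHB9 and 0.691 for PCDHB15. Whether 1 of the 2 libraries of a group carried these values cannot be seen from a value per group.

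The rest of the beta cluster was close to the limit of detection. Without PCDHB2, PCDHB9 and PCDHB15, the other 16 genes summed to 0.410, 0.737, 0.0760 and 0.518 FPKM. Over all 19 beta genes the estimated fragments came to 165, 326, 28 and 283, and 16, 12, 18 and 13 genes had under 10. PCDHB14 read 0.0374, 0.168, 0.0221 and 0.0558 FPKM, higher with decitabine in both arms. PCDHB5 was at 0 in both DMSO groups and read 0.0695 and 0.125 with decitabine. The pseudogene PCDHB18P was at 0 with DMSO and read 0.0734 and 0.00832 with decitabine, while PCDHB19P was highest in siLuc DMSO, at 0.0965. PCDHB1 and the pseudogene PCDHB17P were at 0 in all 4 groups.

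In the gamma cluster the A-type genes carried most of the signal, summing to 1.32, 4.27, 1.78 and 3.25 FPKM. A single A-type gene, PCDHGA10, held 30.7% to 52.7% of the sum of the whole gamma cluster. The B-type genes summed to 0.284, 1.19, 0.448 and 1.32, and the 3 C-type genes to 0.101, 0.630, 0.201 and 0.676. All 3 types were thus higher in both decitabine groups than in both DMSO groups.

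PCDHGA10, the highest gamma gene, read 0.936, 1.96, 1.28 and 1.77 FPKM. Both decitabine values were higher than both DMSO values, and the authors' deposited table gives q = 0.438 in siLuc and q = 0.789 in siStau1 cells. PCDHGA11 read 0.0483, 0.760, 0.0652 and 0.329 FPKM, with q = 0.392 in siLuc cells in the authors' deposited table and no test in siStau1 cells. PCDHGA12, the last A-type gene, read 0.149, 0.515, 0.0385 and 0.455 FPKM. PCDHGA4 read 0 and 0.0244 FPKM with DMSO against 0.370 and 0.151 with decitabine. Each of these 4 A-type genes had both decitabine values above both DMSO values.

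Among the B-type genes, PCDHGB7 reached the highest single FPKM and read 0.226, 0.470, 0.313 and 0.358, although PCDHGB2 was slightly higher in siStau1 DAC. PCDHGB5 was at 0 in both DMSO groups and read 0.209 and 0.290 with decitabine. PCDHGB2 read 0.0202 and 0.0594 with DMSO and 0.149 and 0.367 with decitabine. The pseudogene PCDHGB8P read 0.0721, 0.154, 0.0152 and 0.0840 and was higher with decitabine in both arms, like its coding neighbours PCDHGA11 and PCDHGA12, and PCDHGB9P read 0, 0.129, 0.0289 and 0.

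The 3 gamma C-type genes, of which PCDHGC4 is known for its role in the survival of interneurons, differed from each other. PCDHGC4 read 0 and 0.00840 FPKM with DMSO in siLuc and siStau1 cells and 0.321 and 0.551 with decitabine, with q = 0.501 in siStau1 cells in the authors' deposited table. PCDHGC5 was at 0 in both DMSO groups and read 0.0763 and 0.0491 with decitabine. PCDHGC3, a C-type gene also known from cells other than neurons, read 0.101, 0.233, 0.193 and 0.0759, so it was higher with decitabine in siLuc cells and lower in siStau1 cells. Gamma genes share a median of 46.5% of the exonic bases of their longest transcript with another member, which limits single gamma values as it does those of alpha.

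**Figure D3:**
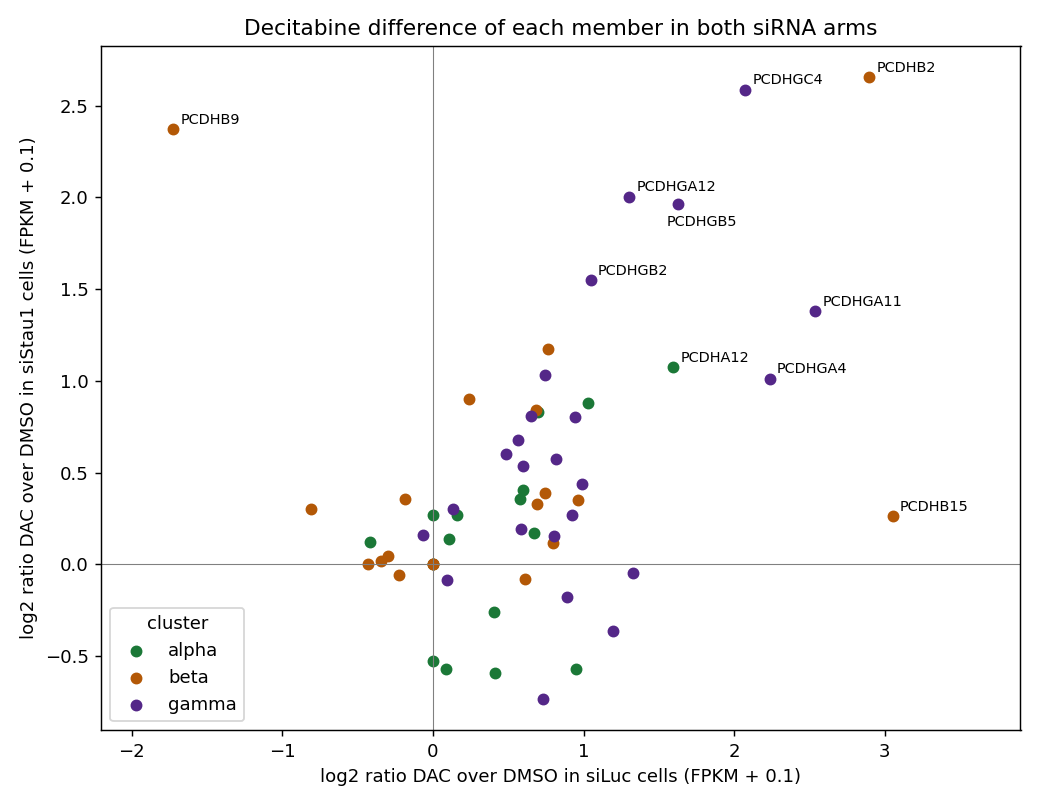
Log2 ratio of decitabine (DAC) over DMSO, each FPKM + 0.1, in siLuc cells (horizontal) and siStau1 cells (vertical), 1 point per member, coloured by cluster, with no error because each group has 1 value. PCDHB2, PCDHA12 and the 6 labelled gamma genes lie toward the upper right, while PCDHB9 (-1.72 and 2.37) and PCDHB15 (3.05 and 0.26) are far from equal ratios in both arms.

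Staufen1 knockdown gave no call of a member, and no difference between the clusters was tested. With DMSO 28 members were higher and 16 lower in siStau1 than in siLuc cells, which was 63.6% higher against 50.1% of all genes. Alpha had 9 higher and 2 lower, gamma 16 and 4, and beta 3 and 10. The beta sum was 1.04 FPKM in siLuc and 0.141 in siStau1 cells, and PCDHB9 made up most of that difference, with 0.613 against 0.0601. With decitabine 21 members were higher and 34 lower, 38.2% against 43.3% of all genes, and alpha had 6 higher and 8 lower, beta 6 and 11, and gamma 9 and 15. The median log2 ratio over all members, those at 0 included, was 0.00 with DMSO and -0.13 with decitabine. Over the members above 0 it was 0.069 and -0.14, beside 0.00 and -0.11 over all genes above 0. A log2 ratio of at least 1 was reached by 4 members with DMSO and 1 with decitabine, against 9.87% and 7.87% of all genes above 0. A ratio of -1 or less was found for 1 member with DMSO (PCDHB9, -2.15) and 3 with decitabine (PCDHB15, -2.89, PCDHGB9P, -1.19, and PCDHGA11, -1.002). The share of all genes at -1 or less was not counted. The ratio for decitabine was a median of 0.14 lower on the log2 scale in siStau1 than in siLuc cells over all members. By cluster the median of siStau1 minus siLuc was -0.21 for alpha, 0.16 for beta and -0.16 for gamma. These differences were not tested because the table holds no value per library. The 4 comparisons share groups, so their directions are not independent of each other.

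Promoter CpG number went weakly with level. Over the 47 members with a promoter, Spearman's rho of CpG number with the mean FPKM of both decitabine groups was 0.390. With the log2 ratio for decitabine it was 0.398 in siLuc and 0.154 in siStau1 cells. These members share promoter ancestry and reads, and the values are descriptions. PCDHGA10 goes against the relation, with 3 CpG and the second highest level, and so does PCDHGA4, with 2 CpG and a log2 ratio of at least 1 in both arms. Methylation itself was not measured in the data used here.

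**Figure D4:**
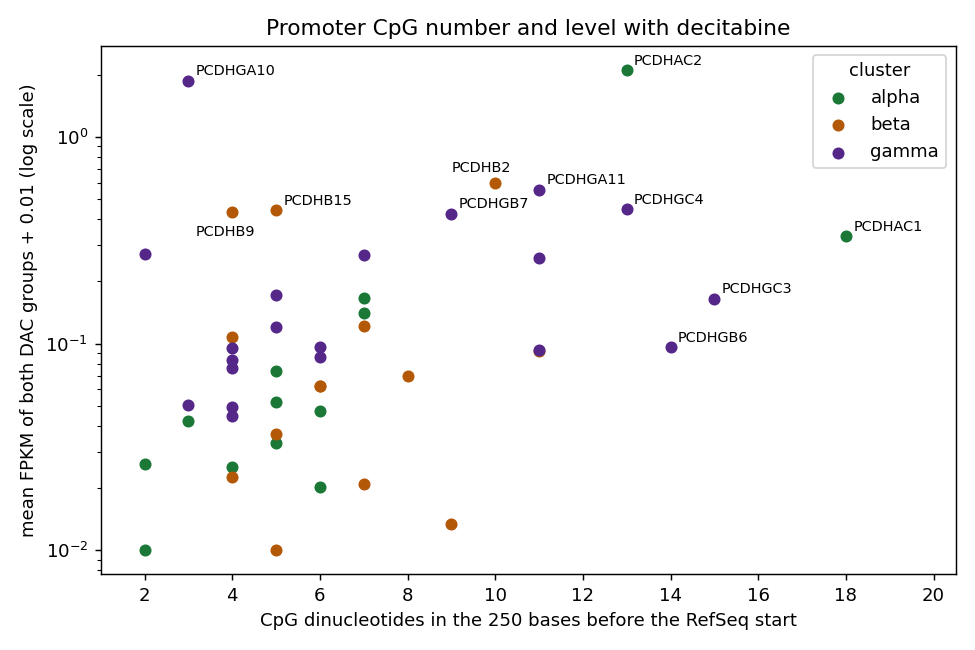
Number of CpG dinucleotides in the 250 bases before the RefSeq start (horizontal) against the mean FPKM of both decitabine groups + 0.01 (vertical, log scale) for the 47 members with a promoter, coloured by cluster. PCDHAC1 (18 CpG) and PCDHGC3 (15 CpG) lie to the right at moderate levels, and PCDHGA10 reaches the second highest level with 3 CpG.

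Genes known to act on the clusters were mostly not called. Of 20 listed regulators, all tested, 1 was called higher and 1 lower with decitabine in siLuc cells, and 0 higher and 1 lower in siStau1 cells, beside the 13.5% and 7.46% of all genes given above. SMC3, the cohesin subunit that forms the ring with SMC1A, fell from 27.1 to 8.97 FPKM in siLuc cells and from 44.5 to 18.1 in siStau1 cells (q = 0.00162 and 0.00293 in the authors' deposited table). SMC3 was also called higher in siStau1 than in siLuc cells with decitabine, with q = 0.0434 in the same deposited table. WIZ, a zinc finger protein that occupies CTCF and cohesin sites, rose from 1.51 to 5.27 FPKM in siLuc cells with q = 0.0343 in the authors' deposited table. CTCF read 39.0, 29.2, 35.7 and 29.2 FPKM and was not called. The methyltransferases DNMT1, DNMT3A and DNMT3B and the silencing factors SETDB1, TRIM28 and SMCHD1 were not called either.

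PDCD10, reported to bind the protocadherin constant region, fell with decitabine in siLuc cells from 45.2 to 18.3 FPKM (q = 0.0296 in the authors' deposited table). None of 19 other genes beside the clusters on chromosome 5 was called in any of the 4 comparisons, with 16 or 17 tested. TAF7, which lies between beta and gamma on the other strand, read 35.9, 31.7, 38.7 and 40.5 FPKM, and DIAPH1, just beyond gamma, read 45.3, 54.3, 38.3 and 52.3. Both were expressed in all 4 groups at levels far above any clustered protocadherin. The 19 neighbours had a median log2 ratio for decitabine of 0.55 in siLuc and 0.45 in siStau1 cells, beside 0.65 and 0.30 for the members. DND1, chosen after its values were seen, had the highest ratio among them, at 0.126, 1.97, 0.0854 and 1.60 FPKM.

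Of the 12 protocadherins outside the 3 clusters, 2 were tested. Their median log2 ratio for decitabine was 0.86 in siLuc and 0.18 in siStau1 cells, beside 0.65 and 0.30 for the clustered genes. Several near-silent ones had higher values with decitabine, as clustered members did, but others went the other way. PCDH15 and PCDH19 were lower with decitabine in both arms. PCDH11X and PCDH17 were lower in siStau1 cells and at 0 in both siLuc groups. PCDH10, a protocadherin of the delta group, read 0.00296, 0.272, 0.00495 and 0.190 FPKM, and PCDH9, of the same group, read 0.0120, 0.144, 0.0120 and 0.180. PCDH7 read 16.2 and 28.0 FPKM with DMSO in siLuc and siStau1 cells and 7.26 and 7.97 with decitabine, and fell in siStau1 cells with q = 0.00162 in the authors' deposited table (q = 0.107 in siLuc cells). PCDH1 read 4.03 and 3.60 with DMSO and 8.81 and 7.80 with decitabine, with q = 0.0890 and 0.143 in the authors' deposited table. PCDH7 alone was above the summed FPKM of all 59 clustered members in both DMSO groups.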

How the data were processed

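Total RNA of 8 libraries in 4 groups was used. The authors deposited 1 FPKM value per gene and group, with p-values and q-values for 6 comparisons, in the layout of Cuffdiff per the file headers. HISAT2 2.1.0, Cuffdiff 2.2.1 and GENCODE 29 are named in the submitters' processing notes, without their settings. The deposited q-value is the Benjamini-Hochberg value over all 102180 tests (largest gap on recomputing 5.27e-07). Planned count or limma fits, the replicate block and fits without single libraries need values per library, so the deposited Cuffdiff calls at q under 0.05 were used. Ratios are log2 of FPKM plus 0.1, computed with Python 3.11.15, pandas 2.3.3 and numpy 2.4.6. The ratios understate changes of low genes. The Benjamini-Hochberg adjustment and the fragment estimate, but not the ratios, were checked on simulated data. Transcript GC and sharing came from GENCODE 29, promoters from RefSeq. Fragments per group were estimated from the FPKM step of 8115 single-transcript genes, with a fragment length of 160 bases fitted to those genes. The longest transcript was used for each beta gene, although only 5 of 19 have 1 annotated transcript, so these numbers are approximate. Named members were the 3 highest of each cluster, C-type genes, pseudogenes and any called member; others named were chosen after their values were seen. Calls for the listed protein partners are given in part, since 1 item is not reported here. The members and lists were chosen with earlier results of these data known. The 3 tables of J2-enriched RNA list repeat elements without positions and were not used. Pseudocounts, filters, scaling, GC bins and call thresholds were varied.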

Additional observations from a re-analysis of the deposited data

How the results depend on the processing

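The count of members called was 0 of those tested in all 4 comparisons under every alternative run: q under 0.01, adjustment within a comparison, unadjusted p under 0.05, and members of at least 1 FPKM. No paired analysis was possible because the deposited values are 1 per group, and leaving out each library was not run for the same reason. The pseudocount set the size of the median log2 ratio over members. For decitabine in siLuc and siStau1 cells it was 0.65 and 0.30 as reported, 0.087 and 0.041 once 1 was added in place of 0.1, and 1.72 and 1.04 once 0.01 was added. It was 0.84 and 0.63 for the 2 members of at least 1 FPKM, 0.57 and 0.28 relative to the median of genes of at least 1 FPKM in both groups, 0.43 and 0.26 within GC bins, and 0.67 and 0.33 for protein-coding members. For knockdown with DMSO it was 0.23 at 1 FPKM or more, 0.017 relative to those genes, 0.13 within GC bins and 0.013 for protein-coding members. For knockdown with decitabine it was -0.017 and -0.17 with pseudocounts of 1 and 0.01, 0.015 at 1 FPKM or more, -0.017 relative to those genes and -0.069 within GC bins. The members higher by a log2 ratio of at least 1 numbered 12, 11, 4 and 1 in the 4 comparisons, against 45, 43, 28 and 21 higher by any amount. These counts of higher members and the remaining alternatives were chosen after seeing the data. Cluster medians for decitabine in siLuc cells with pseudocounts of 1 and 0.01 and within GC bins were 0.047, 1.20 and 0.40 for alpha, 0.026, 1.50 and 0.65 for beta, and 0.13, 2.24 and 0.43 for gamma. In siStau1 cells they were 0.017, 0.82 and 0.16 for alpha, 0.033, 1.19 and 0.40 for beta, and 0.072, 1.76 and 0.31 for gamma. The 0.65 for beta is the value of PCDHB1, at 0 in all groups, and arises from the centring alone. Members above 0 were therefore also taken alone, as deposited, within GC bins of genes of at least 1 FPKM, and within GC bins of genes with a mean FPKM under 2. Over all members above 0 these medians were 0.69, 0.47 and 0.11 for decitabine in siLuc cells, 0.33, 0.33 and -0.015 in siStau1 cells, 0.069, 0.11 and 0.018 for knockdown with DMSO, and -0.14, -0.10 and 0.024 for knockdown with decitabine. In siLuc cells they were 0.58, 0.67 and 0.11 for alpha, 0.61, 0.67 and 0.12 for beta, and 0.85, 0.43 and 0.13 for gamma. In siStau1 cells they were 0.17, 0.21 and -0.23 for alpha, 0.34, 0.41 and 0.0076 for beta, and 0.56, 0.31 and 0.046 for gamma. The sign thus turned against low genes of like GC for all members and for alpha with decitabine in siStau1 cells, and for knockdown with decitabine. The causes of these shifts beyond the construction of each alternative were not tested. Depth also limits the members: below about 0.1 FPKM a value rests on few fragments.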

Other observations

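The 25 other annotated genes within the span of the clusters include 13 antisense genes, of which 4 were above 0 in any group. AC244517.11, antisense across the beta genes, read 0.138 and 0.494 FPKM with decitabine in siLuc and siStau1 cells and 0 in both DMSO groups. AC005609.3, antisense within the alpha cluster, read 0.266 and 0.0601 FPKM with decitabine in siLuc and siStau1 cells and 0 with DMSO. AC244517.5, antisense at the beta cluster, went the other way, with 0.319 FPKM in siLuc DMSO and 0 in the other 3 groups, and AC005618.2 read 0.0823 in siStau1 DAC and 0 elsewhere. How strand was used in the counting is not given in the sources used here.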
